A study of Arabidopsis thaliana with 36 samples.

Results

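Genes for core parts of the spliceosome were followed through the series: SKIP, MAC3A, MAC3B, CDC5, PRL1, PRP8A, BRR2A, CLO, STIPL1 and XCT. They were taken by locus from a list of gene names, and are 10 of 27444 protein-coding nuclear genes of Arabidopsis thaliana. Of these genes, 9 contain introns (110 distinct annotated introns in all), and STIPL1 has none. RNA depleted of ribosomal RNA was sequenced from whole seedlings in 36 libraries, 3 in each of 12 groups. The triple mutant swap1-1sfps-2rrc1-3, the double mutants swap1-1sfps-2, swap1-1rrc1-3 and sfps-2rrc1-3, the single mutant swap1-1 and the Col-0 wild type (WT) were each sampled after 3 h of red light (7 µmol per square metre per second) and after 3 h more of darkness. All seeds were chilled in the dark at 4 °C for 4 d and given 3 h of white light, and the seedlings then grew for 4 d in the dark on medium without sucrose. Each mutation is represented by 1 allele. The genes SWAP1, SFPS and RRC1 encode splicing factors that act in light responses of seedlings. Below, the mutants are called by gene name alone.

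The spliceosome assembles on each intron from small RNA-protein particles, and the U5 particle brings the large scaffold PRP8, the RNA helicase BRR2 and the GTPase SNU114. The PRP19 complex, built around a ubiquitin ligase first known from yeast, joins during activation and holds the catalytic RNA in place. In Arabidopsis SKIP, PRL1, XCT and STIPL1 are also known from mutants with altered circadian rhythm, immunity or growth. Core spliceosome genes are themselves spliced, so their own introns can be followed in the same libraries.

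Only results for whole groups were used: the authors' deposited tables hold the transcripts and regions that passed their thresholds, with no value for a single library. The values of each library therefore cannot be shown, the depth of each library is unknown, and a gene that is missing from a table was not called, which does not show that it was unchanged. The labels do not say whether the 3 libraries of a group came from separate cultures, so the authors' p-values measure the spread between these libraries, which may be technical. In whole seedlings, fewer cells of a type and less RNA per cell cannot be told apart. Log2 fold changes are given as mutant over WT, as the triple mutant over a double mutant, or as red light over dark, and a value called higher or lower without the word fold is a log2 difference. For the comparisons of WT and swap1 that direction was settled from the values, as the processing notes say. For the 8 splicing comparisons with the triple mutant it was not checked. There the second group named was taken over the first, as in the splicing comparisons of WT and swap1. Each value called higher or lower in the triple mutant rests on that reading.

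The sequences at the splice sites that changed are shown first, because most of the results are about them. All are from the RefSeq TAIR10.1 assembly, read 5′ to 3′ on the strand of the gene. SKIP has 2 acceptors for the intron in its 5′ UTR, the upstream one at chr1:29001831-29001860 and the downstream one at chr1:29001655-29001684, both on the minus strand. In these 2 lines the acceptor AG is in capitals, with 20 bases that include it before the splice and 10 bases after it.
SKIP upstream acceptor: tgttttccgctctattgtAGtgaatccaac
SKIP downstream acceptor: ttattgttctttgtttgcAGgttgcgattt

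Intron 4 of MAC3A lies at chr1:1227310-1227579 on the plus strand. The capitals mark the 36 bases between an unannotated acceptor and an unannotated donor that the junction calls named.
MAC3A intron 4: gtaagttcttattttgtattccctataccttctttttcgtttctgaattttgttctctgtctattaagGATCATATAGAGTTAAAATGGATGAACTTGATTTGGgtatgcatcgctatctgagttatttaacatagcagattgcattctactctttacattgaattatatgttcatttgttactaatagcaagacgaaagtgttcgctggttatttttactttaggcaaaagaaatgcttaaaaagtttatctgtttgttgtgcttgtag

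PRL1 carried the most region calls of the 10 genes summed over the 12 comparisons (22, against 18 in MAC3B), at 9 distinct regions, against 10 in MAC3B. Its introns 2 (chr4:9024028-9024265), 4 (chr4:9024580-9024683) and 7 (chr4:9025238-9025451), all on the plus strand, are shown whole. Capitals mark the first bases of 2 unannotated donors in intron 2 and the last bases of an unannotated acceptor in introns 4 and 7.
PRL1 intron 2: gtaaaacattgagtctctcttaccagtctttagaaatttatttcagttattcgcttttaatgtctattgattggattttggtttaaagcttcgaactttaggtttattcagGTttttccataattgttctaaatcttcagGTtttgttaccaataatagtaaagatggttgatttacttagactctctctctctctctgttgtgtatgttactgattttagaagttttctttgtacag
PRL1 intron 4: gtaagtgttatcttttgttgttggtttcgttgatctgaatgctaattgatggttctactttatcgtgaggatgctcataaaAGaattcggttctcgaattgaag
PRL1 intron 7: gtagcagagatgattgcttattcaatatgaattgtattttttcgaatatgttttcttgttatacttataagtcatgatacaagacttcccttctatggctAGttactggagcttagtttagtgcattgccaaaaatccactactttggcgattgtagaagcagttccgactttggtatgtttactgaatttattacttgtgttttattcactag

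XCT intron 4 is 460 bases long, and its last 200 bases (chr2:9066512-9066711, plus strand) hold both an unannotated and the annotated acceptor, each with its AG in capitals.
XCT intron 4, last 200 bases: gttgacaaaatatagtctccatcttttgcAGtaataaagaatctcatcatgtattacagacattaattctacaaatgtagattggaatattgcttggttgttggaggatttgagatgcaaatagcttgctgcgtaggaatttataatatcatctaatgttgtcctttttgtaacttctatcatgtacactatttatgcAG

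The next 2 sequences are windows of 35 bases around the acceptors of MAC3B intron 10 (chr2:14128103-14128137, minus strand) and CLO intron 4 (chr1:1902811-1902845, plus strand). In each, the unannotated acceptor lies a few bases inside the next exon. The annotated AG and the AG after it are in capitals.
MAC3B intron 10 acceptor: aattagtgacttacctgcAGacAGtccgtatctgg
CLO intron 4 acceptor: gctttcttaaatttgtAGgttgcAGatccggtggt

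SKIP was the single gene of the 10 with a transcript called in any expression table. SKIP (AT1G77180, chr1:28999577-29002143, minus strand) encodes a conserved spliceosome protein with an SNW domain that in Arabidopsis also joins transcriptional complexes. Its transcript AT1G77180.2 was higher in swap1 than in WT in both light conditions. In the dark it stood at 2118 normalised counts in swap1 and 875 in WT, solved from the base mean and fold change of the authors' deposited table. In red light it stood at 1370 in swap1 and 770 in WT, solved in the same way from the authors' deposited table. How reads that fit more than 1 SKIP isoform were counted is not given in these sources, so the levels may not be those of AT1G77180.2 alone. The group levels were 2.42-fold higher in swap1 in the dark and 1.78-fold higher in red light by the authors' deposited table.

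On the log2 scale these were 1.28 (SE 0.10, DESeq2 adjusted p = 2.10e-32) in the dark and 0.83 (SE 0.11, adjusted p = 1.63e-13) in red light by the authors' deposited table. Among called transcripts SKIP ranked 1373 of 3933 by size of change in the dark and 3314 of 5138 in red light, so its change was not among the largest in either. By DESeq2 adjusted p it ranked 207 in the dark and 1241 in red light. Between swap1 and WT at most 13.7% of tested transcripts were called in the dark and at most 17.7% in red light. The swap1 effect in red light minus that in the dark was -0.45 on the log2 scale (95% interval -0.74 to -0.15, SE 0.15). This difference passed a threshold of 0.05 (normal p on the deposited SE = 0.00285, Benjamini-Hochberg adjusted p = 0.0253), as did 273 of the 2170 transcripts called in both comparisons (12.6%). The authors normalised the tables separately, and the test treats their SE as exact. With both SE multiplied by 1.5 the adjusted p was 0.414.

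No transcript of the 10 genes was called by red light against dark, in swap1 or in WT. At most 26.6% of tested transcripts were called by light in swap1 and at most 22.2% in WT. These are DESeq2 calls, and the tables hold no uncalled transcript, so a count at an unadjusted p cannot be given. The other 9 genes were called in none of the 4 expression tables.

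The 2 SKIP acceptors separate AT1G77180.1 from AT1G77180.2, which have the same coding sequence and different leaders. SKIP has 3 annotated transcripts, and AT1G77180.3 has a further intron in its coding sequence. AT1G77180.2 uses the upstream acceptor and so removes a shorter intron (123 bases, against 299 in AT1G77180.1). It keeps the 176 bases between the acceptors, and its annotated start lies 8 bases further upstream. Its 5′ UTR is therefore 388 bases long, against 204 in AT1G77180.1. The extra stretch (chr1:29001665-29001840) holds 2 ATG triplets, while the shorter leader holds none. ASpli, the authors' splicing program, compares the coverage of such a stretch (a bin) with the coverage of its gene. The SKIP bin was higher in swap1 than in WT by 0.89 (FDR 5.45e-30) in the dark and 0.91 (FDR 1.02e-34) in red light by the authors' deposited table. It exceeded WT in the triple mutant by 0.98 (FDR 1.07e-54) in the dark and 0.80 (FDR 7.71e-39) in red light by the authors' deposited table. In the dark ASpli also called a junction region there in the triple mutant, with a change in participation (the share of local junction reads) of 0.310 (FDR 3.45e-72) by the authors' deposited table. The bin and AT1G77180.2, which contains it, were thus both higher in swap1. Both calls come from the same libraries and may count the same reads, so they are not independent results. Whether the choice of acceptor alone gave the expression call was not tested. Neither AT1G77180.1, with the shorter leader, nor AT1G77180.3 was called. The bin was not called between light conditions or between the triple mutant and any double mutant.

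**Figure D1:**
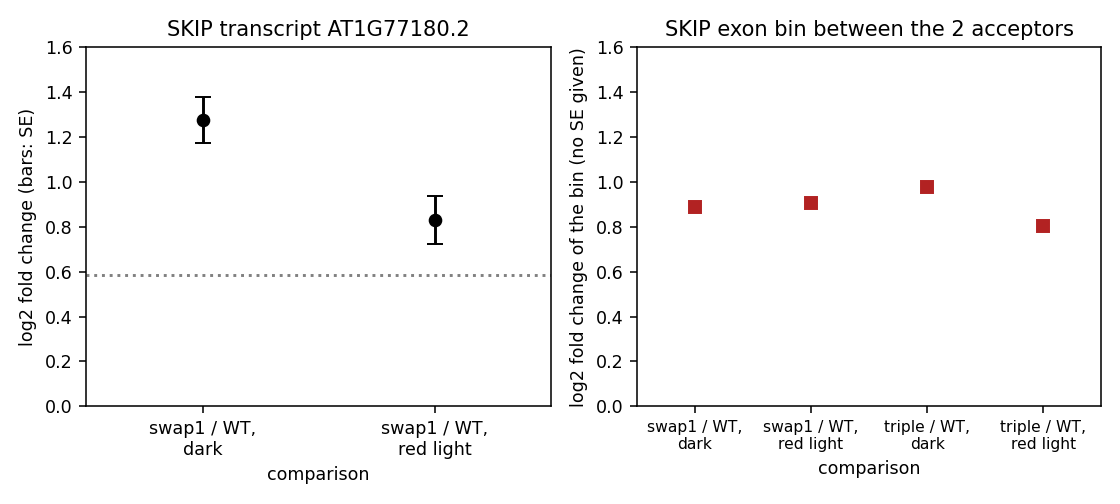
SKIP in the comparisons that called it. The left panel plots the log2 fold change of transcript AT1G77180.2 with its SE in swap1 over WT (1.28 in the dark and 0.83 in red light; dotted line, the authors' threshold of 0.585), and the right panel plots the log2 fold change of the exon bin between both acceptors, which lies between 0.80 and 0.98 in 4 comparisons.

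Splicing calls reached further through the 10 genes than expression calls did. A locus was counted when ASpli called at least 1 of its bins or junction regions. Between swap1 and WT, 3 of the 9 intron-containing genes had a called region in the dark and 8 had one in red light, where 17.4% and 27.1% of all annotated intron-containing loci did. Between the triple mutant and WT, 5 genes had one in the dark and 7 in red light, against 23% and 29.5% of intron-containing loci. These percentages count every annotated locus, expressed or not, and therefore understate the share among expressed genes. A locus with more introns also has more chances of a call. The 9 genes hold 110 introns, and the 22245 intron-containing loci hold 131151, so these genes have more introns each. Shares of introns are given below. The comparisons with WT share the WT libraries of their light condition, and the difference in counts between dark and red light was not tested.

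Between red light and dark, 3 of the 9 genes had a called region in swap1 and 1 had one in WT, where 9.26% and 6.44% of intron-containing loci did. When the triple mutant was set against sfpsrrc1, which still has SWAP1, 3 genes were called in the dark and 1 in red light, beside 6.64% and 5.48% of loci. Against swap1rrc1, which still has SFPS, none was called, beside 1.1% of loci in the dark and 0.836% in red light. Against swap1sfps, which still has RRC1, none was called either, beside 0.692% in the dark and 0.85% in red light. With so low a background, 0 of 9 genes is not a result about these genes.

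**Figure D2:**
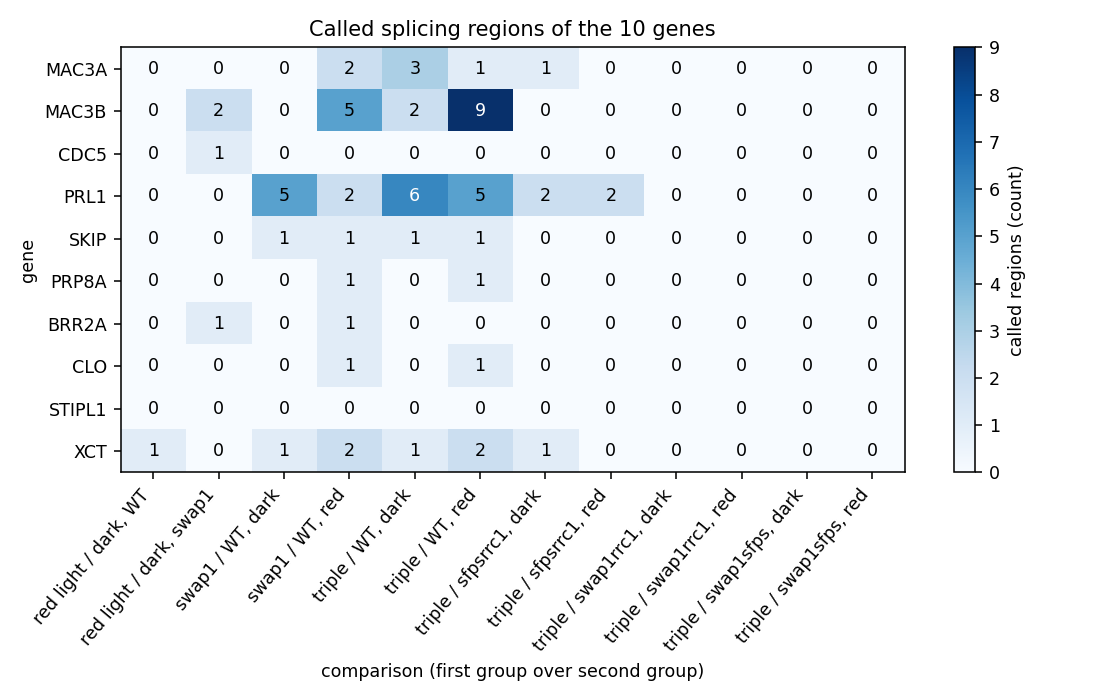
Number of called splicing regions (bins and junction regions) for each of the 10 genes (rows) in each of the 12 comparisons (columns), written in each cell and shaded from 0 to 9. MAC3B reaches 9 in the triple mutant over WT in red light and PRL1 reaches 6 in the triple mutant over WT in the dark, while the 4 columns at the right are 0 throughout.

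Intron retention made up most of these calls, and nearly all of it was higher in the mutants. An intron bin that is higher has more reads inside the intron relative to its gene. Of the 110 introns, 22 (20%) were called in at least 1 comparison, beside 12.7% of all annotated introns, and 13 were called in more than 1. All called introns of the 10 genes were higher between swap1 and WT, with 4 in the dark (background 2.16% of introns) and 13 in red light (5.64%). The same held between the triple mutant and WT, with 7 in the dark (3.42%) and 14 in red light (6.21%). As shares of the 110 introns these were 3.64% (dark) and 11.8% (red light) in swap1, and 6.36% (dark) and 12.7% (red light) in the triple mutant.

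The direction was common to the whole series: 85.2% of all called introns in the dark and 95.2% in red light were higher in swap1 than in WT. The median log2 fold change of the called introns of the 10 genes was 0.71 in the dark and 0.85 in red light in swap1, beside 0.74 and 0.78 over all called introns. In the triple mutant it was 0.83 in the dark and 0.82 in red light, beside 0.76 and 0.79 over all called introns. In red light against dark, 4 introns were higher in swap1 (1.16% of all introns) and 1 was lower in WT (0.766%).

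**Figure D3:**
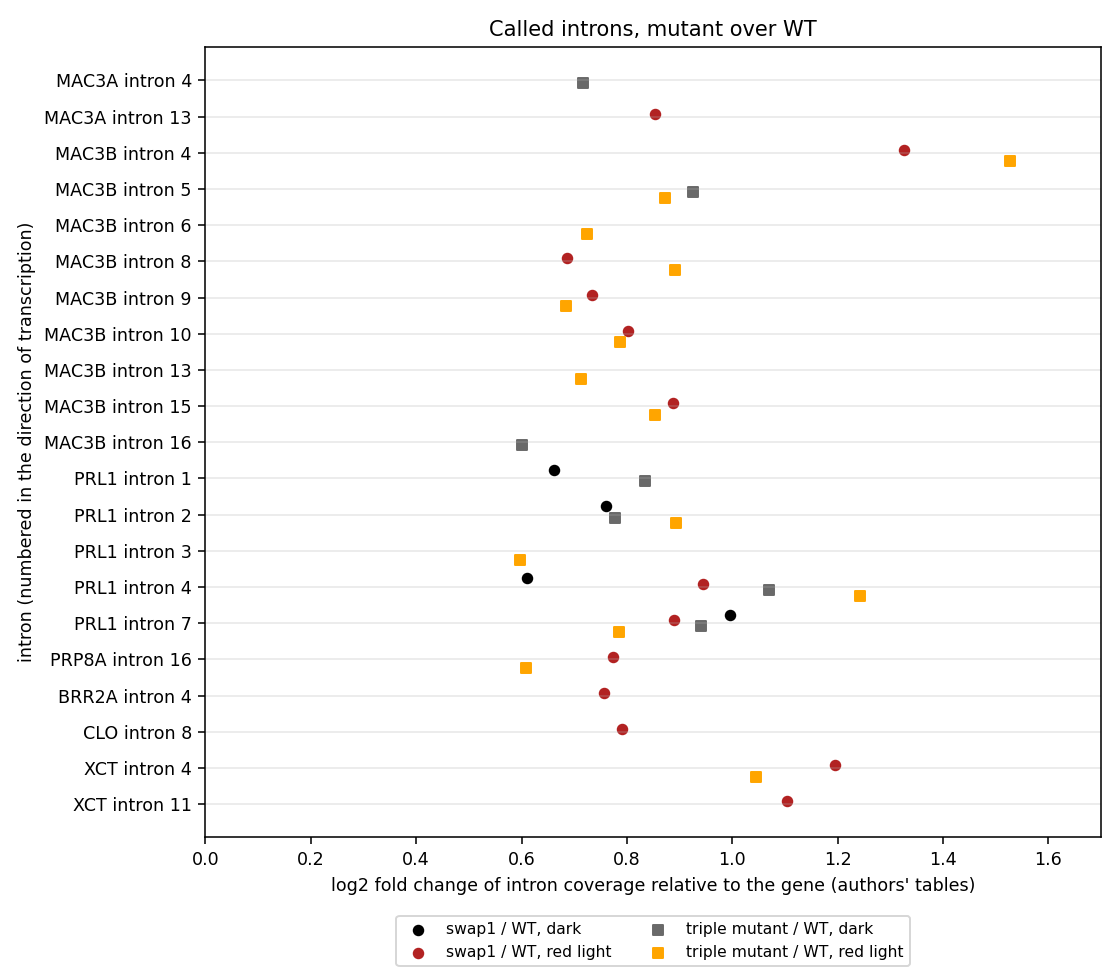
Log2 fold change of each called intron (rows, numbered in the direction of transcription) in swap1 over WT (circles) and the triple mutant over WT (squares), in the dark and in red light; a missing symbol means not called. Every plotted value lies above 0, and the highest is MAC3B intron 4 at 1.53 in the triple mutant in red light.

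MAC3B had the most called introns. MAC3A (AT1G04510, chr1:1226483-1230947, plus strand) and MAC3B (AT2G33340, chr2:14126141-14131224, minus strand) are the 2 Arabidopsis copies of the ubiquitin ligase PRP19. In MAC3B, 9 of 19 introns were called, and in MAC3A 2 of 18 were. MAC3B intron 4 (chr2:14130001-14130338) was 1.32 higher in swap1 than in WT in red light (FDR 1.94e-12) and 1.53 higher in the triple mutant (FDR 3.06e-21) by the authors' deposited table. The same intron was 0.74 higher in red light than in the dark in swap1 (FDR 2.39e-05) by the authors' deposited table, and was not called in WT between lights.

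The donor of MAC3B intron 4 (chr2:14130319-14130348) and its acceptor (chr2:14129991-14130020), both on the minus strand, are shown because the intron had the largest fold change of the 10 genes. Capitals mark the GT and the AG.
MAC3B intron 4 donor end: gttccagaatGTaagctttaattgttcttt
MAC3B intron 4 acceptor end: agctgctttgcattttttAGgaatgggacg

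Introns 8, 9, 10 and 15 of MAC3B were called in red light in swap1 and in the triple mutant. Against WT, intron 8 was 0.69 higher in swap1 and 0.89 higher in the triple mutant by the authors' deposited table. Intron 9 was 0.73 higher in swap1 (FDR 0.00693) and 0.68 higher in the triple mutant (FDR 0.00444) by the authors' deposited table. In swap1 it was also 0.69 higher in red light than in the dark (FDR 0.0216) by the authors' deposited table. Intron 10 was 0.80 higher and intron 15 was 0.89 higher (FDR 0.0226 for intron 15) in swap1 than in WT by the authors' deposited table. In the triple mutant they were 0.79 and 0.85 higher by the authors' deposited table. These introns were thus higher in both mutants in red light, and none was called in swap1 in the dark.

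Intron 5 of MAC3B was called in the triple mutant alone, 0.93 higher in the dark and 0.87 higher in red light by the authors' deposited table. Introns 6, 13 and 16 were each called once, in the triple mutant, at 0.60 to 0.72 by the authors' deposited table. Their FDRs were 0.0185, 0.00785 and 0.018. At the end of intron 10, the unannotated acceptor 4 bases into the exon had an inclusion change of 0.306 in the triple mutant in red light (FDR 0.000193) by the authors' deposited table. An inclusion change is a difference of fractions that the authors give without a sign, so it says how much the use of a junction differed and not which group used it more.

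MAC3A was called mainly at junctions inside intron 4. Its unannotated donor, 104 bases inside the intron, had an inclusion change of 0.414 in swap1 against WT in red light (FDR 0.00119) by the authors' deposited table. In the triple mutant against WT the change was 0.491 (FDR 5.02e-06) in the dark and 0.375 (FDR 0.00218) in red light by the authors' deposited table. Against sfpsrrc1 in the dark the triple mutant differed by 0.450 (FDR 8.01e-07) by the authors' deposited table. The unannotated acceptor upstream of it was called in the triple mutant against WT in the dark, at 0.357 (FDR 0.00465) by the authors' deposited table.

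Between that acceptor and that donor lie the 36 bases in capitals in the sequence above, which would be 12 codons with no stop in the annotated frame if both junctions were used together. The junction calls do not show that both occur in the same molecule. With the unannotated donor alone, the kept bases hold an in-frame stop that begins at base 76 of the intron, and with the unannotated acceptor alone at base 52 of the kept bases. Set against WT in the dark, the triple mutant had 0.72 more of the whole intron on the log2 scale (FDR 0.00134) by the authors' deposited table. Intron 13 of MAC3A was 0.85 higher in swap1 than in WT in red light (FDR 0.0104) by the authors' deposited table.

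PRL1 (AT4G15900, chr4:9023666-9027808, plus strand), a WD40-repeat protein that is the counterpart of PRP46 in the yeast PRP19 complex, was called in 6 of the 12 comparisons. Of its 16 introns 5 were called, all among the first 7. Intron 4 was called in every comparison of swap1 or the triple mutant with WT. It was higher in swap1 by 0.61 (FDR 0.00556) in the dark and 0.94 (FDR 2.27e-06) in red light by the authors' deposited table. In the triple mutant it was higher by 1.07 (FDR 1.92e-11) in the dark and 1.24 (FDR 1.24e-15) in red light by the authors' deposited table. The unannotated acceptor 21 bases inside intron 4 changed in inclusion by 0.446 in the dark and 0.541 in red light in the triple mutant against WT by the authors' deposited table.

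Intron 7 of PRL1 was likewise called in all 4 comparisons with WT. It was 1.00 higher in swap1 in the dark and 0.89 higher in red light by the authors' deposited table. In the triple mutant it was 0.94 higher in the dark and 0.78 higher in red light by the authors' deposited table. Its unannotated acceptor 112 bases inside the intron had an inclusion change of 0.341 in the triple mutant in the dark (FDR 0.000546) by the authors' deposited table.

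PRL1 intron 2 was the single intron of the 10 genes called when the triple mutant was compared with sfpsrrc1, in either light, where 0.315% of all introns were higher in the dark and 0.315% in red light. It was 0.78 higher than in sfpsrrc1 (FDR 0.00242) in the dark and 0.80 higher (FDR 0.00718) in red light by the authors' deposited table. Against WT it was 0.76 higher in swap1 (FDR 0.0201) in the dark by the authors' deposited table. The triple mutant had it 0.78 higher than WT in the dark (FDR 0.0165) and 0.89 higher (FDR 0.000328) in red light by the authors' deposited table.

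Both unannotated donors of intron 2 were called. The donor 140 bases inside the intron had an inclusion change of 0.644 in swap1 against WT in the dark (FDR 4.44e-11) by the authors' deposited table, the largest junction change of the 10 genes. The donor 111 bases inside had a change of 0.576 (FDR 4.63e-11) in the dark and 0.476 (FDR 1.21e-05) in red light in the triple mutant against sfpsrrc1 by the authors' deposited table. Intron 1 was 0.66 higher in swap1 in the dark (FDR 0.0386) and 0.83 higher in the triple mutant in the dark (FDR 0.00115) by the authors' deposited table. Intron 3 was 0.60 higher in the triple mutant in red light (FDR 0.00346) by the authors' deposited table.

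**Figure D4:**
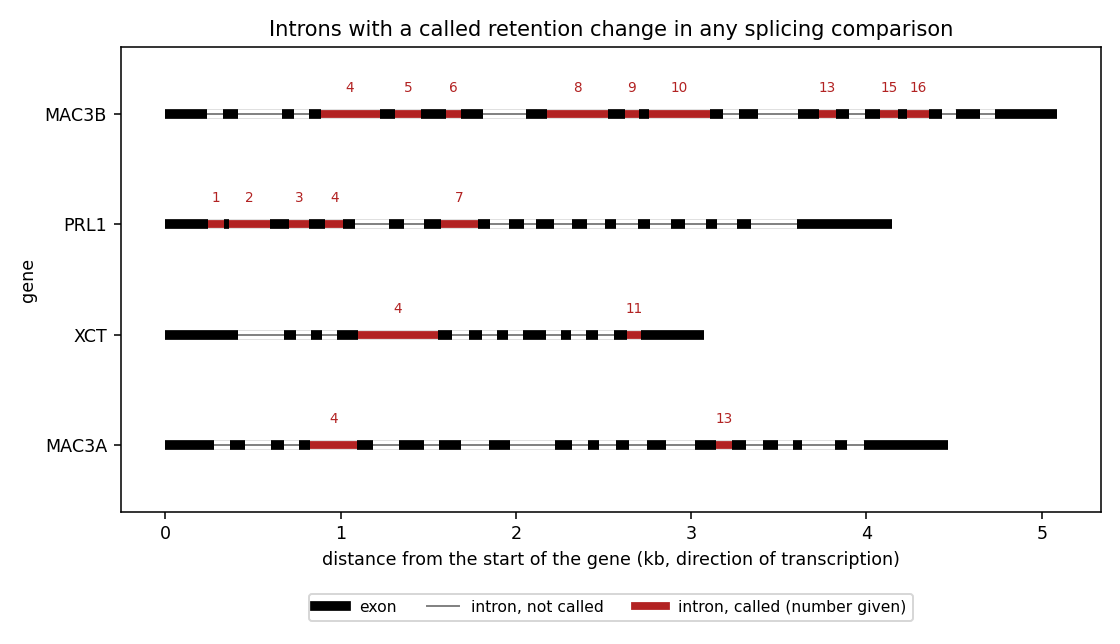
Exons (thick black), uncalled introns (thin grey) and introns called in at least 1 splicing comparison (red, with their number) of MAC3B, PRL1, XCT and MAC3A, drawn to scale from the start of each gene in kb. MAC3B has 9 called introns spread along the gene, and the 5 of PRL1 lie among its first 7 introns.

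CDC5 (AT1G09770, chr1:3161832-3165616, plus strand), the MYB-like partner of PRP19 in the PRP19 complex, was called once. Its intron 1 (chr1:3162179-3162443) was 0.70 higher in red light than in the dark in swap1 (FDR 0.000146) by the authors' deposited table. CDC5 was not called between either mutant and WT.

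The 3 U5 proteins had few calls. PRP8A (AT1G80070, chr1:30117847-30127811, plus strand), the scaffold around the catalytic RNA, had 1 called intron of 23. Its intron 16 (chr1:30124834-30124921) was 0.77 higher in swap1 than in WT in red light (FDR 0.0167) and 0.61 higher in the triple mutant (FDR 0.0299) by the authors' deposited table. BRR2A (AT1G20960, chr1:7301599-7310271, minus strand), the helicase that unwinds U4 from U6, was called at its intron 4, a 527-base intron in the 3′ UTR (chr1:7302052-7302578). That intron was 0.76 higher in swap1 than in WT in red light (FDR 0.000184), and in swap1 it was 0.78 higher in red light than in the dark (FDR 4.82e-05), by the authors' deposited table.

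CLO (AT1G06220, chr1:1899951-1904897, plus strand), the SNU114-type GTPase, was called in red light. Its intron 8 (chr1:1903685-1903762) was 0.79 higher in swap1 than in WT (FDR 0.0343) by the authors' deposited table. The unannotated acceptor 7 bases past the end of intron 4 had an inclusion change of 0.341 in the triple mutant against WT (FDR 4.83e-06) by the authors' deposited table. STIPL1 (AT1G17070, chr1:5837590-5840332, plus strand), the counterpart of a yeast factor of spliceosome disassembly, has no annotated intron and no called region.

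XCT (AT2G21150, chr2:9065154-9068228, plus strand), a XAP5-family protein, was called in 6 comparisons and was the single gene of the 10 called by light in WT. Its intron 4 (chr2:9066252-9066711) fell by 0.62 in WT in red light relative to dark (FDR 0.0136) by the authors' deposited table, a call that an FDR threshold of 0.01 would end. In red light the same intron was 1.19 higher in swap1 than in WT (FDR 1.65e-11) and 1.05 higher in the triple mutant (FDR 1.24e-11) by the authors' deposited table. It was not called in swap1 between lights, and the difference between genotypes in its light response was not tested because no SE is given for bins.

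The unannotated acceptor of intron 4, 169 bases before the annotated one, was called in the dark in swap1 against WT, with an inclusion change of 0.466 (FDR 2.82e-10) by the authors' deposited table. In the triple mutant against WT the change was 0.498 (FDR 1.90e-11) in the dark and 0.331 (FDR 8.22e-06) in red light by the authors' deposited table. Against sfpsrrc1 in the dark it was 0.362 (FDR 0.000270) by the authors' deposited table. Intron 11 was 1.10 higher in swap1 than in WT in red light (FDR 0.00107) by the authors' deposited table.

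The called introns were also described by their sequence. Of the 22, 21 lie in coding sequence, and each of those 21 would bring an in-frame stop codon if retained in the annotated frame. That is common in these genes, where 94 of 101 coding introns would do so. The median length was 120.5 bases for the 22 called introns, 96.5 for the uncalled introns of the 10 genes and 101 for all annotated introns. Introns of 300 bases or longer made up 22.7% of the called and 4.55% of the uncalled introns of these genes, and 13.3% of all annotated introns. Called introns of all protein-coding genes had a like length, with a median of 123 bases and 21.7% of 300 bases or longer. The donor letters GTAAGT stood at the start of 4 of 22 called introns (18.2%), beside 9.86% of all called introns and 9.08% of all introns. The acceptor letters TGCAG stood at the end of 9 of 22 (40.9%), beside 22.6% of all called introns and 19.9% of all introns. Among the uncalled introns of these genes, 7.95% began with GTAAGT and 25% ended with TGCAG. Both were read on the gene's strand, and these shares are descriptions with no test.

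A list of 36 other spliceosome genes, including copies of the 10, was read in the same tables. In swap1 against WT, 2 had a called transcript in the dark, both higher, and 5 had one in red light, 2 higher and 3 lower. Of all tested transcripts, at most 13.7% were called in the dark and at most 17.7% in red light. AT5G25230, the copy of CLO (here CLO2), was 2.78 higher in the dark (SE 0.31) and 2.22 higher in red light (SE 0.27) by the authors' deposited table. Its levels were low, with 20.6 normalised counts in WT in the dark and 51.3 in red light, solved as for SKIP. The base mean of CLO2 was 81.2 in the dark and 145 in red light, beside medians of 182 and 204 over called transcripts. PRL2, the copy of PRL1, was 0.75 higher in the dark (SE 0.14) and 1.00 higher in red light (SE 0.11) by the authors' deposited table. CRN1B, a TPR-repeat protein of the PRP19 complex, had -1.66 in red light (SE 0.35, base mean 63.8) by the authors' deposited table. Copies such as these are similar in sequence, and how the authors' counting treated reads that fit both copies is not given in the sources used here.

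Light called a transcript of 3 of the 36 genes in swap1 and of 3 in WT, 2 higher and 1 lower each time. Of all tested transcripts, at most 26.6% were called by light in swap1 and at most 22.2% in WT. In red light against dark, CLO2 was 1.80-fold higher in swap1 and 2.65-fold higher in WT by the authors' deposited table. Its solved level in WT in the dark was 18.6 normalised counts there. PRL2 was 1.83-fold higher in swap1 and 1.54-fold higher in WT by the authors' deposited table. PRP28, a U5 helicase, had -0.79 in swap1, and STIPL2, the copy of STIPL1, had -0.78 in WT, by the authors' deposited table.

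An annotated intron is present in 35 of the 36 genes, and the shares of this list are over all 36. Light gave called regions in 4 of the 36 genes in swap1 (11.1%, beside 9.26% of intron-containing loci). In WT it gave them in 1, the PRP19 complex protein MOS4 (2.78%, beside 6.44%). Splicing regions were called in swap1 against WT in 6 of the 36 genes in the dark (16.7%, beside 17.4% of intron-containing loci) and in 15 in red light (41.7%, beside 27.1%). The counts in the triple mutant against WT were 7 in the dark (19.4%, beside 23%) and 14 in red light (38.9%, beside 29.5%), so both dark counts lay below the background. Of the 36, 19 had a called region in at least 1 of the 12 comparisons (9 of the 10 core genes, and 43.7% of intron-containing loci). STIPL2 had the same intron bin lower in all 4 comparisons with WT. That bin had log2 fold changes of -1.18 (dark) and -1.04 (red light) in swap1, and of -1.11 (dark) and -0.83 (red light) in the triple mutant, by the authors' deposited table. PRP2, a helicase of spliceosome activation, had 7 called regions in the triple mutant in red light, and RID1, a DEAH-box helicase, had 3 there and 3 in swap1 in the dark. DOT2, a protein of the U4/U6.U5 particle, and SMP2, a second-step factor, each had 3 in swap1 in red light.

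Markers of the tissue were read from the expression tables. All 6 seedling genes, of chlorophyll synthesis and light harvesting, were called by light in swap1 and in WT, 4 higher and 2 lower in red light in each. Against WT, 2 of them were lower in swap1 in the dark and 1 was higher in red light. Of 11 seed storage and embryo genes, 6 were lower in swap1 than in WT in red light and 3 in the dark, and 2 were higher in red light than in the dark in swap1 and 3 in WT. Of 7 root hair genes, 3 were higher in swap1 in red light and 1 in the dark, and by light none was called in swap1 and 1 was lower in WT. The part of these marker genes in the results above was not tested. SWAP1 itself had 4 or 5 called regions in each comparison of a swap1 group with a group that has SWAP1. Of its transcripts AT4G31200.3 was 0.92 higher in swap1 than in WT in red light (SE 0.28, DESeq2 adjusted p = 0.00409) by the authors' deposited table, so a lower SWAP1 level was not called. SFPS had no called region in any of the 12 comparisons, including those of the triple mutant with WT, so these calls do not check the sfps label.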

How the data were processed

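The 36 libraries were put in 12 groups of 3 by their titles. Per the submitters' processing notes the reads went through FastQC, STAR, HTSeq and DESeq2 on the build TAIR10, and the series text adds ASpli 2.0. Their parameters are not stated in these sources. The 10 genes and all gene lists were chosen with earlier results of these data known. All 10 genes and their called transcripts are named, with each region that was called in at least 2 comparisons or was the largest of its gene in a comparison.

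In the 4 expression tables the authors deposited, per transcript, a base mean (a signal of normalised counts averaged over both groups), a log2 fold change with its SE, a Wald score, a p-value and its adjusted form. They hold only called transcripts (absolute log2 fold change of at least 0.585 and adjusted p of at most 0.05). In the 12 splicing tables the deposited bins have a log2 fold change and an FDR p-value, and junction regions have an FDR, a likelihood ratio score and a change in inclusion or participation (a fraction, without sign), per the file headers. The headers name a bin fold of 1.5, a bin FDR of 0.05 (0.03 in the 8 tables with the triple mutant), a junction FDR of 0.01 and a junction change of 0.3. The 16 deposited gene ontology tables were not used.

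Direction was settled from the values for the comparisons of WT and swap1. Around the loop of 4 groups, fold changes of 535 transcripts closed to a median of 0.00302 log2 units with both genotype tables turned to swap1 over WT, and to 0.628 for the next best signs. For 49 bins they closed to 0.00100 as deposited (second over first group). Of 314 bins specific to 1 isoform, 304 had the sign of their transcript. Both checks cover WT and swap1 only. The splicing comparisons with the triple mutant were read as second over first group without such a check. Known light-regulated genes set red light over dark.

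Group levels were solved from base mean and fold change. The number of transcripts tested was estimated from the ranks of the adjusted p-values and is a lower bound, so shares of called transcripts are upper bounds. Shares of called loci and introns are over 22245 intron-containing loci and 131151 introns of RefSeq TAIR10.1. Of 16865 called intron bins, 98.5% equalled an annotated intron there and 98.3% began with GT and ended with AG. For a difference of 2 log2 fold changes, the SE was the square root of the sum of both squared SE (two-sided normal p, Benjamini-Hochberg over all transcripts called in both), and the script was tested on simulated data. No test over libraries was possible. Python 3.11.15, pandas 2.3.3, numpy 2.4.6, scipy 1.17.1 and statsmodels 0.14.6 were used. Stricter fold, p and FDR thresholds, larger SE and bins alone were tried as alternatives.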

Additional observations from a re-analysis of the deposited data

Results flagged for a closer look

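The SKIP transcript AT1G77180.2 was flagged because the swap1 effect differed between light conditions: red light minus dark was -0.445 on the log2 scale (Benjamini-Hochberg adjusted p = 0.0253). Its fold change over WT was 0.83 in red light and 1.28 in the dark by the authors' deposited table.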

How the results depend on the processing

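No paired analysis was possible because the tables hold results of whole groups and carry no replicate, and leaving out replicates was not possible for the same reason. The SKIP difference of -0.45 between lights kept its direction but passed no threshold of 0.01 (adjusted p = 0.0253), and with both SE multiplied by 1.5 its adjusted p was 0.414. A minimum of 1 for the absolute log2 fold change left 0 of the 10 genes' transcripts called in swap1 against WT in red light, where 1 was called before. For splicing, bins with that fold change and all junction regions together gave 0 regions by light in swap1 and 0 in WT, instead of 4 and 1. They gave 2 in swap1 against WT in the dark and 4 in red light, instead of 7 and 15. In the triple mutant against WT they gave 7 in the dark and 8 in red light, instead of 13 and 20, and against sfpsrrc1 in red light 1 instead of 2. An FDR of at most 0.01 left 0 regions by light in WT instead of 1. Bins alone gave 8 regions in the triple mutant against WT in the dark, and against sfpsrrc1 1 in the dark and 1 in red light, instead of 13, 4 and 2. Each of these drops follows from the stricter rule itself. Of 49 bin values of the 10 genes, 37 passed an FDR of 0.01 and 7 passed an absolute log2 fold change of 1. The depth of the libraries is unknown, so what it limits cannot be stated.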
